A study of Mus musculus with 6 samples.

Results

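Small nucleolar RNA (snoRNA) and small Cajal body RNA (scaRNA) are short nuclear RNAs that pair with other RNAs and guide a protein complex to the base to be modified. Box C/D snoRNAs (symbols Snord) guide methylation of the ribose, and box H/ACA snoRNAs (symbols Snora) guide the change of uridine to pseudouridine, mostly in ribosomal RNA. The scaRNAs (symbols Scarna) guide the same modifications in spliceosomal small nuclear RNA and can carry either kind of box or both. In mammals most of them are cut from introns of host genes, many of which encode ribosomal proteins.

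These RNAs were read from total RNA of RPE/choroid, the retinal pigment epithelium (RPE) with the vascular layer beneath it, of C57BL/6J mice, which the labels give as male while the methods name both sexes for the study. There were 3 young mice, labelled 1 to 2 months old, a range that differs from the one in the methods, and 3 aged mice, labelled 20 to 24 months in the titles and 22 to 24 months in the time label; per the methods, 2 eyes were pooled in each sample. No genotype, transgene or treatment separated the groups. Ribosomal RNA was removed and no poly(A) selection was made, so untailed RNA could be read. The members were chosen by symbol and by the authors' mean, baseMean: every symbol of the table that starts with Snora, Snord or Scarna in any case and has a baseMean above 0. This gave 191 members of 252 such symbols listed and of 33924 symbols in all. The baseMean is the mean of normalized counts over all 6 libraries, so every level below is that of young and aged mice together. No value per library was at hand, the depth of each library is unknown here, and no SD, replicate range or test could be given. The fold changes and p-values of the authors' own age comparison were not used, so the difference between ages is not analysed here.

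As a group the members had low normalized counts in these libraries. They summed to a baseMean of 22228 normalized counts, which is 0.116% of the sum over all symbols. Their median was 9.98, against 82.1 for the 26681 symbols of the whole table that were above 0. These figures are not divided by length, and the 105 symbols with 1 locus have a median length of 94 bases. Per kb, the 71 of these above 0 had a median of 87.8, and no such median is given here for the whole table. Of the 191 members, 172 had a baseMean of at least 1, 95 of at least 10, 29 of at least 100 and 3 of at least 1000. The share of listed symbols above 0 was 75.8% for these RNAs and 78.6% for the whole table. Since the rule itself sets the limit at 0, these shares are a description. Just inside it lay SNORA29 and SNORD26, both at 0.148, and then Snora5c, SNORA49 and SCARNA18, all at 0.153, and just outside it were the 61 symbols listed at 0. A value of exactly 0 can be a failed estimate as well as a missing RNA, and in a bulk sample fewer cells of a type and less RNA per cell cannot be told apart.

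The labelled tissue was checked against defining markers. All 6 RPE markers were above 0, with a median of 14720 normalized counts per kb of exon and a low of 27.1 for Best1, a chloride channel of the RPE. Markers of cells that the choroid holds were above 0 as well (median per kb 484 for endothelium, 6986 for fibroblasts and 1789 for leukocytes). The pigment cell genes listed for melanocytes had a median of 11269, but the RPE can express these too. Also above 0 were markers of cells outside the labelled layer, rods at 2775 and lens at 781. The part of these other cells in the levels of the small RNAs was not tested.

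The level was held by a few members. The 10 most abundant took 70.1% of the summed baseMean, and the first 2 took 43.8%. Those were Scarna10, a guide with both kinds of box that modifies U5 small nuclear RNA, at 5925, and Scarna2, a box C/D guide for U2 small nuclear RNA, at 3810.1. The 24 listed Scarna symbols, 22 of them above 0, held 58.1% of the sum, although they made up the smallest class. The 87 box H/ACA members held 26.1% and the 82 box C/D members 15.9%.

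The sequences of the members on which the description below turns were taken from GENCODE M21 transcripts (GRCm38), and capitals mark TGATGA, the core of box C, within the first 20 bases, CTGA, box D, within the last 12, and ACA within the last 8. The first 4 are abundant members: Snord17, the highest box C/D member, Snord123, high for its short length, Snora23, a high box H/ACA member, and Scarna6, which has C and D boxes.
Snord17, chr2:144265979-144266216, minus strand: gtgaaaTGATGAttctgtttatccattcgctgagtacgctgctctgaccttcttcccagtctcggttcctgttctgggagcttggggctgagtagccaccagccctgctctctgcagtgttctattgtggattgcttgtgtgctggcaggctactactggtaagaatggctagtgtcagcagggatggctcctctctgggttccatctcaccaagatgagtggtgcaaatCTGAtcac
Snord123, chr15:32241853-32241923, minus strand: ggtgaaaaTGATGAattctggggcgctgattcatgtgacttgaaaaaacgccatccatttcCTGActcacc
Snora23, chr7:110046364-110046547, plus strand: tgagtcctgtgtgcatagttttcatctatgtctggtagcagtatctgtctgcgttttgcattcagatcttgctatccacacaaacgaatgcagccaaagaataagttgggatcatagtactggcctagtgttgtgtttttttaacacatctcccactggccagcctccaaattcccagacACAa
Scarna6, chr1:87784556-87784820, plus strand: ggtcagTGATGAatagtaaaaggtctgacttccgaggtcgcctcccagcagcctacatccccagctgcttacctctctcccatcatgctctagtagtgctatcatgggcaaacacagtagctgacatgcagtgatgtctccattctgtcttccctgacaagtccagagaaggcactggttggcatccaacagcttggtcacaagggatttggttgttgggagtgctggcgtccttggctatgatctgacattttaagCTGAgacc

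The next 7 lie beside each other in 3 host genes, Rps3, Rpl13a and Hspa8, and are shown because neighbours of 1 box class differed in level or were all listed at 0.
Snord15a, chr7:99482785-99482932, minus strand: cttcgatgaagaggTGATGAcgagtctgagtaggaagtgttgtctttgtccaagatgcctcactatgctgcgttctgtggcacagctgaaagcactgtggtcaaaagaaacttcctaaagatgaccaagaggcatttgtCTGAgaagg
Snord15b, chr7:99479563-99479707, minus strand: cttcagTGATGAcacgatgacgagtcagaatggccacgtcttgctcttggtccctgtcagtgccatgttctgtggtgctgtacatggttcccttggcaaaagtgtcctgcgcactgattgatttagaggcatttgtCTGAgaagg
Snord32a, chr7:45127382-45127464, minus strand: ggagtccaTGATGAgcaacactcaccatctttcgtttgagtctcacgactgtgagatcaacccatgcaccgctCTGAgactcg
Snord33, chr7:45126864-45126947, minus strand: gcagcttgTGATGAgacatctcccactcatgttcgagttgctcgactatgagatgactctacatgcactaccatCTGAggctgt
Snord34, chr7:45126601-45126670, minus strand: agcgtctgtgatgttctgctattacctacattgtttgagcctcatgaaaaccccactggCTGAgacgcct
Snord14c, chr9:40803583-40803668, plus strand: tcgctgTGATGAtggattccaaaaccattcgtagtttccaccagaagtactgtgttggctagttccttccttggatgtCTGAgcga
Snord14d, chr9:40803995-40804080, plus strand: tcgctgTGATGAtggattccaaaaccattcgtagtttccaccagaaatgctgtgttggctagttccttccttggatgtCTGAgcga

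The boxes were checked over all 105 symbols with exactly 1 locus in the annotation. An ACA near the 3' end was found in 30 of 32 box H/ACA genes, the exceptions being Snora44 and Snora81, and in 11.1% of 140209 transcripts that are neither snoRNA nor scaRNA. Box C together with box D was found in 36 of 64 box C/D genes and in 0.0271% of those transcripts, and at least 1 of the boxes in 57 of 64. The 7 without either, by these exact letters, were Snord19, Snord35a, Snord35b, Snord70, Snord71, Snord90 and Snord91a. Of the 9 Scarna genes, 4 had C and D boxes and 4 had the ACA. These are matches of letters within fixed windows, not mapped boxes. Annotated lengths differed between the classes, with overlapping ranges and a median of 81 bases for box C/D (64 to 238), 132.5 for box H/ACA (127 to 205) and 140 for Scarna (70 to 414).

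The classes differed in how many symbols were above 0 and in their median. Of 102 box H/ACA symbols 87 were above 0 (85.3%), and of 126 box C/D symbols 82 were (65.1%). This gap lay in the symbols in capitals, of which 65 of 68 box H/ACA (95.6%) and 41 of 62 box C/D (66.1%) were above 0. Whether a symbol in capitals stands for 1 RNA or for several is not known here. Among mixed-case symbols, which name single genes except for Snora16a and Snora43 with 2 loci each, the shares were 64.7% (22 of 34) and 64.1% (41 of 64).

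The median baseMean of the members was 19.3 for box H/ACA and 6.15 for box C/D, a ratio of 3.13. The quartiles were 6.59 and 62.9 for box H/ACA and 2.73 and 10.4 for box C/D, so the upper quartile of box C/D lay below the box H/ACA median. The whole ranges overlapped, from 0.148 to 462 and from 0.148 to 1884. At a baseMean of at least 10 there were 58 box H/ACA and 22 box C/D members. Members are not replicates and were selected on this value, so no test was made. Symbols in capitals made up 65 of the 87 box H/ACA and 41 of the 82 box C/D members. In mixed-case symbols alone the medians were 20.5 and 6.30.

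Per length, the ratio between the classes was smaller and depended on which members were counted. Over the 21 box H/ACA and 41 box C/D members with 1 locus, the median baseMean per kb was 148 and 72.5, a ratio of 2.04, but the order turned among members with a baseMean of at least 10 (236 and 331, a ratio of 0.713) and among those with at least 0.5 of their sequence to themselves (69.1 and 72.5, a ratio of 0.954). None of these 21 box H/ACA members reached the 7917 per kb of Snord17, the 4875 of Snord123 or the 2881 of Snord15a. If the normalized counts, which came from TPM, already allow for length, these values divide by it a second time.

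**Figure D1:**
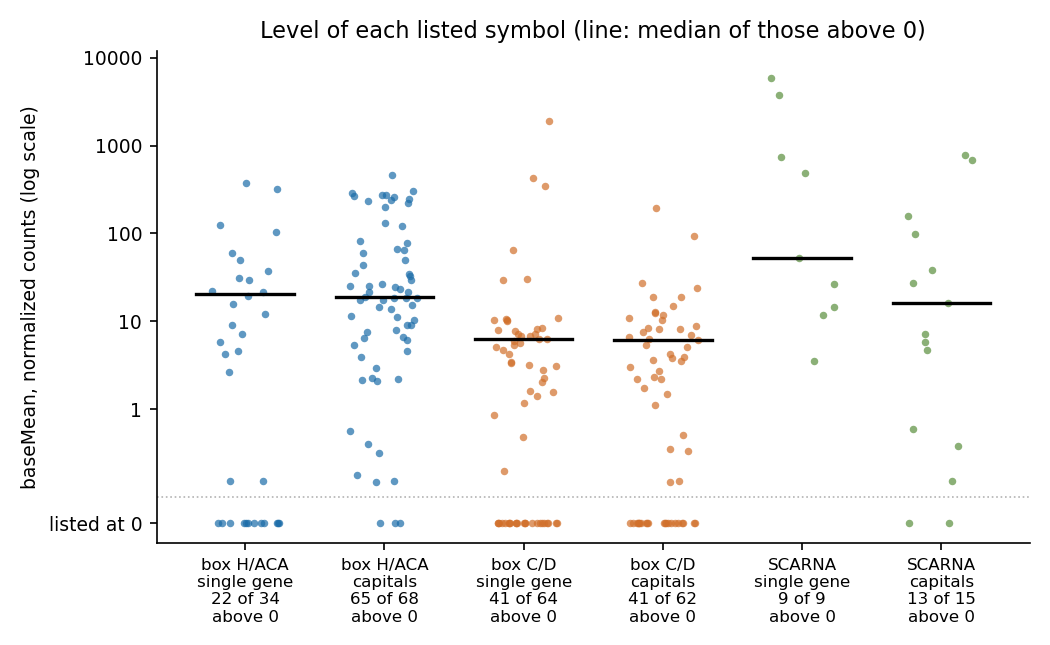
Each point is 1 listed symbol, with its baseMean in normalized counts over the 6 libraries on a log axis and symbols listed at 0 drawn below the dotted line. Columns split each class into symbols in mixed case, marked as single genes (Snora16a and Snora43 have 2 loci), and symbols in capitals. Black lines are medians of the symbols above 0, which lie near 20 in both box H/ACA columns (20.5 and 19.0) and near 6 in both box C/D columns (6.30 and 6.05).

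Among box H/ACA members with 1 locus, 4 genes had a baseMean of at least 100. Snora74a, the RNA also known as U19, had 378 (1927 per kb), Snora23, in an intron of the import receptor gene Ipo7, had 322 (1750 per kb), Snora78, in an intron of Snhg9, had 124 (969 per kb), and Snora68 had 103 (787 per kb). Every stretch of 31 bases of Snora74a also occurs in a transcript of another gene, while none of Snora23 and Snora78 does. The next 6 per kb were Snora28, Snora21, Snora30, Snora7a, Snora33 and Snora34, with a baseMean from 59.7 down to 21.7. The symbols in capitals held 14 further box H/ACA members of at least 100, led by SNORA53 at 462, SNORA14 at 308 and SNORA4 at 288. Their loci were not matched, so no length or host is given for them, and each level may be that of more than 1 RNA.

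Among single box C/D genes, 3 stood apart. Snord17, in an intron of the sorting nexin gene Snx5, had 1884, Snord15a (U15), in an intron of the ribosomal protein gene Rps3, had 426, and Snord123, in an intron of Snhg18, had 346. The next single gene, Snord104, had 65.2, and 10 of the 41 single genes above 0 reached 10. The other 6 among the 10 highest per kb were Snord64, Snord118, Snord45b, Snord49a, Snord98 and Snord72, with 436 per kb for Snord64 and 128 for Snord72. Of the box C/D symbols in capitals, SNORD94 was the highest at 194.

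The scaRNAs ran over a wide range. Below Scarna10 and Scarna2 came SCARNA21 at 785, Scarna13, a guide with the ACA box, at 737, SCARNA6 at 690.3, Scarna6 at 489.9 and SCARNA1 at 159. These 7 were the Scarna members of at least 100. SCARNA17, Scarna3a, SCARNA15, SCARNA20, Scarna17, SCARNA11, Scarna3b and Scarna9 lay between 99.4 and 11.8. SCARNA4, SCARNA14, SCARNA23 and Scarna8 lay between 7.20 and 3.57, and SCARNA3, SCARNA24 and SCARNA18 were under 1. SCARNA13 and SCARNA16 were listed at 0. Per kb the 9 single Scarna genes had a median of 375, from 27.3 for Scarna8 to 18232 for Scarna10.

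Some snoRNAs act in the processing of the ribosomal RNA precursor, and some of these also guide a modification. Snord118 (U8), needed for the large subunit RNAs, had 30.6, Snord13 (U13) had 7.70 and Snord14a (U14) had 10.5. Snord14c, Snord14d and Snord14e, further U14 genes, were listed at 0, and so were Snora73a and Snora73b (U17), while the symbol SNORA73 in capitals had 273. The locus behind SNORA73 was not matched. Of the imprinted clusters, known for their expression in brain, SNORD113 had 93.2, Snord64 29.2, SNORD115 27.5, SNORD107 10.4, SNORD116 5.05 and SNORD112 1.12.

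Whether a single gene was above 0 went along with whether it had any sequence to itself, a relation looked at after the data were seen. Each gene was cut into all its words of 31 bases, and a word was counted as its own if no transcript of another gene held it on either strand. Of 41 genes whose words were all their own, 2 were listed at 0 (4.88%), Snord32a and Snord34. Of 48 genes with no own word, 31 were listed at 0 (64.6%). Between these ends, 7 of 8 genes with a share of own words from 0.5 to under 1 were above 0, and 8 of 8 with a share above 0 and under 0.5 were, so the gap lay between genes with and without any own word. Of the 34 genes with 1 locus at 0, the 31 with no own word made up 91.2%. In box H/ACA 10 of 17 genes with no own word were at 0, in box C/D 21 of 31, and no Scarna gene lacked own words. In 43 of the 48 genes every word was also in a transcript of the host gene, and 27 of these were at 0. The other 16 were above 0, up to 378 for Snora74a. How the quantification divided such reads was not tested.

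**Figure D2:**
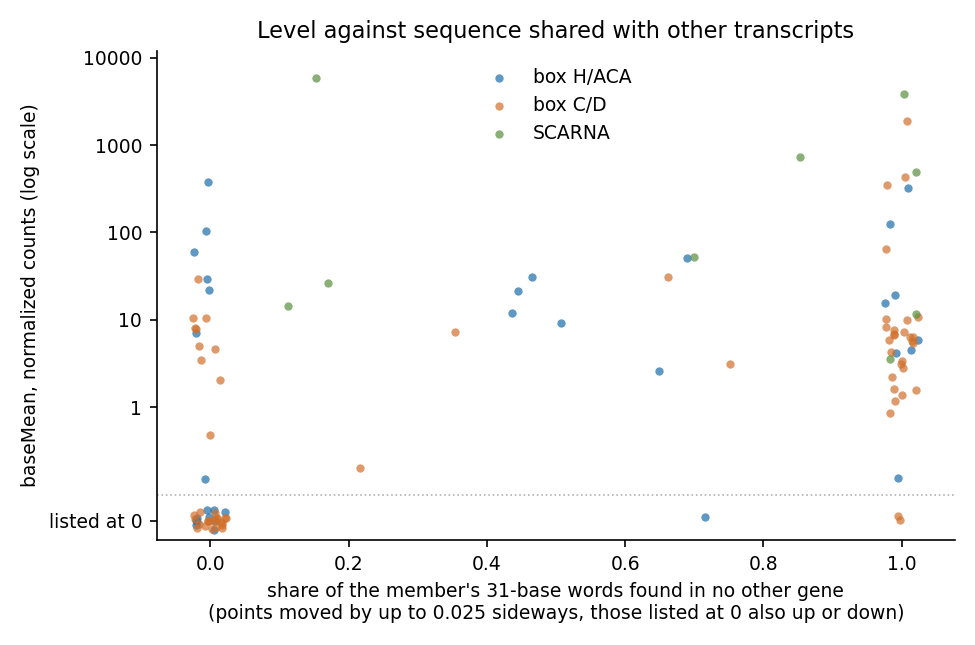
Each point is 1 single gene with 1 locus, with the share of its words of 31 bases found in no other gene on the x axis and its baseMean in normalized counts on a log y axis, genes listed at 0 being drawn below the dotted line. Most genes at 0 stand at the left edge, 31 of 34 with no own word, and 2 stand at the right edge.

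Placement in the host gave a like picture, since the same genes are involved. Of 48 genes inside an intron 43 were above 0 (89.6%), and of 51 that overlap an annotated exon of the host, such as a retained intron, 23 were (45.1%). Of the latter 51, 45 had no own word. The 6 genes outside any gene of the same strand, Snord118 and Scarna2 among them, were above 0 in 5 cases.

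Neighbours in 1 host gene could differ. In Rps3 (10990 normalized counts), Snord15a had 426 and Snord15b was listed at 0. The pair, printed above, is 64.2% identical and shares no word of 31 bases; all words of Snord15a are its own and none of Snord15b is. In Rpl13a (8660.2), whose snoRNAs are known from work on lipid stress, Snord35a had 1.58 while Snord32a, Snord33 and Snord34 were at 0. Snord32a and Snord34 have only own words, unlike most other genes at 0. In Hspa8 (12601) Snord14c, Snord14d and Snord14e were all at 0, and Snord14c and Snord14d, also printed above, are 97.7% identical, with 23 shared words.

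All neighbours were likewise at 0 in 1810032O08Rik (Snord1a, Snord1b and Snord1c), Snhg12 (Snora44, Snora61 and Snord99), Eif4a2 (Snora81 and Snord2), Rack1 (Snord95 and Snord96a) and Snhg3 (Snora73a and Snora73b). The hosts themselves ranged from 0.848 for Snhg3 to 10243 for Rack1. In Rpl23a, Snord42b had 3.09 while Snord42a and Snord4a were at 0.

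In a further group of hosts all neighbours were above 0. In 2410006H16Rik, Snord49a had 9.98, Snord49b 5.69 and Snord65 4.25. In Nop58, which encodes a box C/D core protein, Snord70 had 6.79 and Snord11 2.80. In Ncl, the nucleolin gene, Snora75 had 7.11 and Snord82 1.61. Kansl2, Rps12, Gnl3, Rabggtb and 2410002F23Rik each held 2 members above 0 as well, among them Snord45b at 10.4 and Snord45c at 0.477 in Rabggtb and Snora33 at 22.0 and Snord100 at 7.95 in Rps12. In Nop56, Snord110 had 1.18 and Snord57 was at 0, in Eef1b2 Snora41 had 9.13, and Snord47 in Gas5 and Snord22 in Snhg1 were at 0. In all, 99 genes lay in 74 hosts, 18 of which held at least 2.

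Across genes, the order of the members' levels showed almost no relation to that of their hosts. Over the 60 members above 0 whose host had a value, the rank correlation of both levels per kb was -0.0063 (across genes, which share libraries and are not independent replicates). Of the 60, 20 were above their host per kb of exon (33.3%), and the median member stood at 35.8% of its host. The share above the host was 68.2% among the 22 members with a baseMean of at least 10. Over the 60 it was 50.0% with the host's whole span taken as its length. Scarna10, in Ncapd2, a condensin gene, had 18232 per kb against 42.7 for the host, with 0.142 of its words its own, and Snord17 had 7917 against 905 for Snx5. At the other end, Snord35a stood at 0.428% of Rpl13a and Snord37 at 1.21% of Eef2, the elongation factor gene. By class, 8 of 19 box H/ACA, 8 of 35 box C/D and 4 of 6 Scarna members were above their host, and 6 of 15 members in ribosomal protein genes were. Without division by length, Scarna10 stayed above Ncapd2 (5925 and 267), while Snord17 lay below Snx5 (1884 and 3781).

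**Figure D3:**
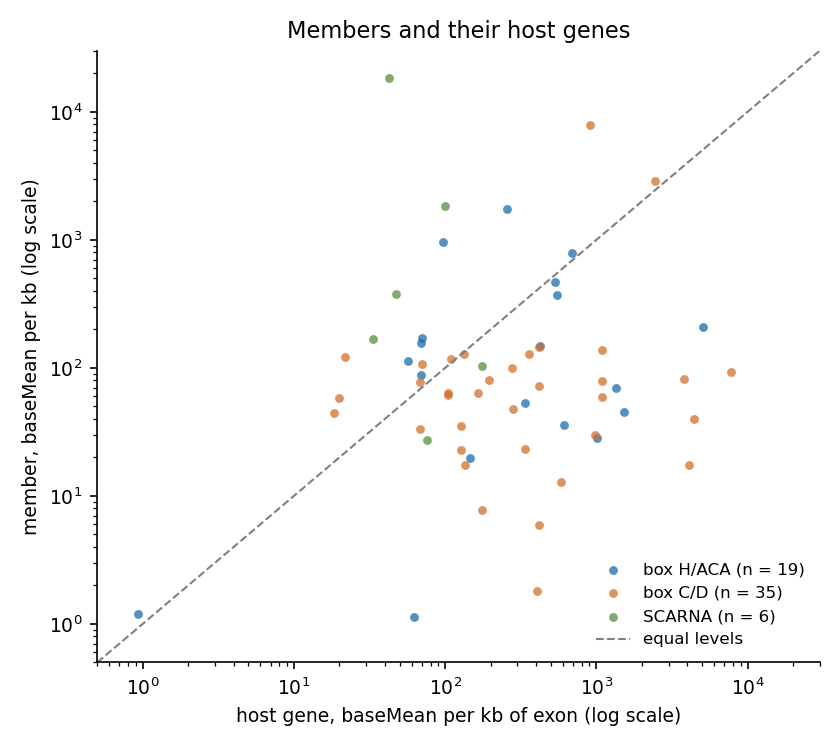
Each point is 1 member above 0, with the baseMean per kb of its host gene's exons on the x axis and its own baseMean per kb on the y axis, both in normalized counts per kb on log axes. The diagonal marks equal levels, 20 of 60 points lie above it, and the rank correlation of the 2 levels is -0.0063.

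Among single genes with 1 locus, the longer ones included most of the abundant ones, while symbols in capitals have no length here. Of 10 genes of at least 160 bases, 7 had a baseMean of at least 100, against 3 of 39 genes of 100 to under 160 bases, 0 of 25 of 80 to 99 bases and 1 of 31 under 80 bases, which was Snord123. Over the 71 members with 1 locus the rank correlation of baseMean with length was 0.43, but it was 0.13 within box H/ACA (21 members) and 0.013 within box C/D (41 members). Reads were paired and 100 bases long, and the part of read and fragment length in these levels was not tested.

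**Figure D4:**
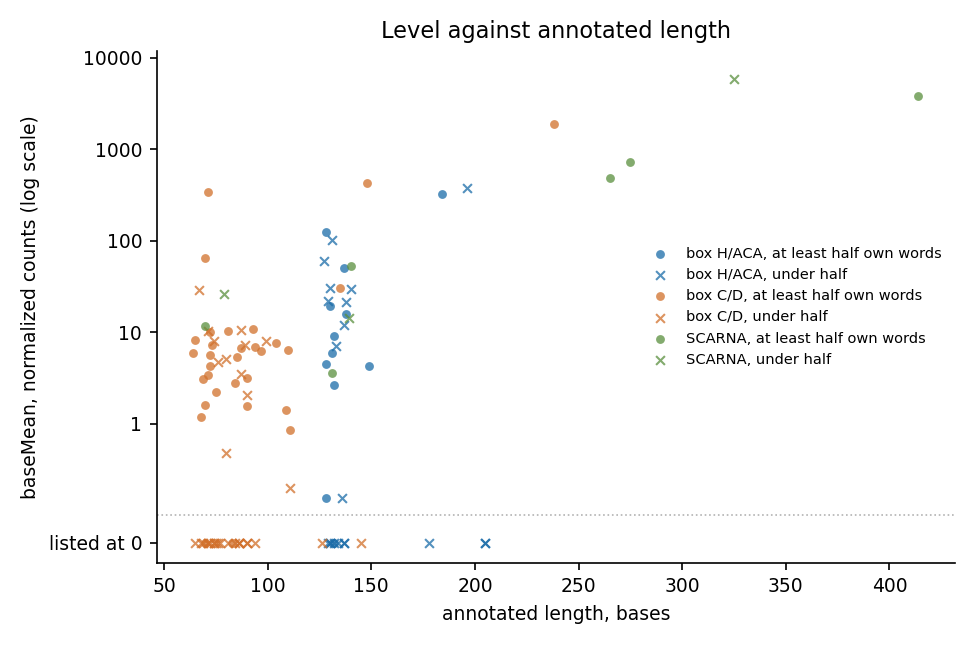
Each point is 1 single gene with 1 locus, with its annotated length in bases on the x axis and its baseMean in normalized counts on a log y axis, coloured by class. The 7 genes of at least 160 bases above 0 all lie at 100 or more, while shorter genes spread from 0 to 426.

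For 34 names the table held a symbol in capitals beside the mixed-case one. The symbol in capitals was higher in 18 pairs, the single gene in 13, and both were at 0 in 3. In 11 pairs the single gene was at 0 and the other above it, as for SNORA17 (245 against 0) and SNORA70 (224 against 0). The opposite was seen in 3 pairs, SCARNA13, SNORD19 and SNORD23, with Scarna13 at 737. Snora68 had 103 against 6.51 for SNORA68. Since the symbols in capitals were not matched to loci, whether both symbols of a pair stand for the same RNA is not known here.

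The protein partners were all above 0. Of the H/ACA core, Dkc1, the pseudouridine synthase, had 103 normalized counts per kb of exon, Nop10 609, Nhp2 238 and Gar1 25.3. Of the C/D core, Fbl, the methyltransferase fibrillarin, had 11.8, Nop56 136, Nop58 68.0 and Nhp2l1 (Snu13) 216. The medians were 170 for the H/ACA and 102 for the C/D core, with ranges that overlapped. All 10 assembly factors were above 0, from 18.1 for Shq1 to 318 for Rpap3. So were the 4 Cajal body genes, among them Coil, the coilin gene, at 76.2 and Wrap53, which brings scaRNAs to the Cajal body, at 85.2, as well as the exonucleases Parn (121) and Exosc10 (228), which trim the ends of such RNAs, and Papd5 (240.1), which adds short adenosine tails to them.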

How the data were processed

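Total RNA of RPE/choroid from 3 young and 3 aged mice was depleted of ribosomal RNA and sequenced as stranded, paired 100-base reads. Per the methods, the authors trimmed reads with BBDuk, mapped them with STAR to Ensembl GRCm38 transcripts (release 82), quantified TPM with Sailfish 0.9.0, turned these into normalized counts by the total count method and ran DESeq2, whose version is not given in the sources used here. The deposited table gives per symbol a signal value, baseMean, the authors' mean of normalized counts over the 6 libraries, which was used. Its other columns hold the authors' own comparison of the ages (log2 fold change, its standard error, test statistic, p-value and adjusted p-value) and were not used. With no value per library, no depth, error, test, leave-one-out or other normalization could be computed, and 0 columns name a sample.

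Symbols were matched to GENCODE M21 (GRCm38). Of 107 mixed-case symbols 105 had 1 locus, while 0 of the 145 symbols in capitals matched. Per kb values divide baseMean by annotated length, for hosts and other genes by the union of exons. Since the authors' counts came from TPM, whether baseMean already allows for length is not known here. If it does, every per kb value divides by length a second time. The host was the shortest gene on the same strand spanning the member. Older symbols were matched through a RefSeq table of the same build. Scripts used Python 3.11.15, numpy 2.4.6, scipy 1.17.1 and matplotlib 3.10.9, and were tested on simulated data. The members and lists were chosen with earlier results of these data known. Named were the 10 highest members per kb of each box class, every Scarna symbol above 0, those of ribosomal RNA cleavage, of Rpl13a and of imprinted clusters, those just above 0, host genes and the partner proteins. SNORD94, SNORD112, SNORA53, SNORA14, SNORA4 and the pairs of symbols were named after their values were seen. The host gene of 1 member is not reported here.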

Additional observations from a re-analysis of the deposited data

How the results depend on the processing

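Of 31 alternatives, 16 were counted as within 1.5 times the reported value, 13 as moved further and 2 as reversed. Only the ratio of the class medians was counted as reversed. A share that reached or crossed 50% was not. The number of members was 22 (box H/ACA), 41 (box C/D) and 9 (Scarna) with mixed-case symbols only, and 21, 41 and 9 with 1 locus only. At a baseMean of at least 10, box C/D fell to 22. The ratio of the box H/ACA to the box C/D median, 2.04 per kb, was 3.05 for the same members without division by length, 3.13 over all members without it, 3.25 in mixed-case symbols without it, and 1.27 with symbols at 0 included. It reversed to 0.713 at a baseMean of at least 10 and to 0.954 with own words of at least 0.5. The cause was not tested. The rank correlation with length, 0.43, was 0.13 within box H/ACA and 0.013 within box C/D. The share of members above their host rose from 33.3% to 68.2% at a baseMean of at least 10, a minimum that itself removes low members. With the host's whole span taken as its length, that share was 50.0%. The share of genes with no own word listed at 0, its split by class and the restriction to members outside annotated exons were chosen after seeing the data. No paired analysis was possible because single libraries have no column of their own, and for the same reason leaving out a replicate, another normalization and another count test were not run. The depth of each library is unknown here, so no counting error is given for values near 0.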

Other observations

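Other short genes give a scale for the members at 0. Of microRNA genes, whose precursors are also short, 60.4% of 159 under 80 bases, 61.3% of 243 with 80 to 99 bases and 64.0% of 100 with 100 to under 160 bases were above 0. The single snoRNA and scaRNA genes of these lengths were above 0 in 61.3%, 64.0% and 74.4%. The median baseMean over all genes of each length, those at 0 included, was 0.334, 0.347 and 0.505 for microRNA genes and 3.09, 2.80 and 5.88 for snoRNA and scaRNA genes. The shares varied among other kinds of short gene. Protein-coding genes of these lengths were above 0 in 46.9% of 32, 50.0% of 10 and 61.5% of 13. The remaining genes, with small nuclear RNA genes left out, were above 0 in 79.4% of 63, 36.4% of 11 and 37.4% of 265. Telomerase RNA, U3 and the RNAs of RNase P, RNase MRP, the signal recognition particle and 7SK were looked up under 7 symbols. Of these 0 were matched, so no level is given for them.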
